A study of Mus musculus with 6 samples.

Results

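Imprinted genes are genes expressed from a single parental allele, and 40 of them were followed here in mouse embryos at the 4-cell stage after knockdown of Son. The members are a fixed list of symbols, found by the symbol that the deposited count tables give beside each Ensembl identifier. All 40 symbols were present, in 44 of the 46072 rows, because Dlk1, Meg3, Rian and Rtl1 each had a second row that was at 0 in all 6 libraries. The tested embryos had siRNA against Son microinjected as zygotes (3 libraries), and the comparison embryos are labelled control (3 libraries). Neither the content of the control injection, the strain, the number of embryos in a library nor separate litters is given in the labels, so p-values measure only the spread between these libraries. The Smart-Seq2 libraries copy whole transcripts into cDNA and do not mark the strand.

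Imprints are laid down in the germ line. At most imprinted clusters, DNA methylation at a control region is inherited from the oocyte or the sperm, and in the embryo the zinc finger protein ZFP57, with its corepressor TRIM28, guards it through the wave of demethylation after fertilization. At a few others, called non-canonical here, histone H3 lysine 27 trimethylation from the oocyte marks the maternal allele. Many imprinted genes govern placental and fetal growth. The terms maternally and paternally expressed below name the allele known to be active in tissues where the imprint has been studied. Parental origin was not measured in these counts, and RNA stored in the oocyte carries maternal alleles whatever the imprint.

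Son itself had 41, 28 and 25.1 CPM (counts scaled to a common library size with edgeR's TMM factors) in the siRNA libraries, against 249, 322 and 332 CPM in controls. Library totals ranged from 104634855 to 118865650 estimated counts, called units below, and mitochondrial genes took 9.79% to 17.5% of them. All 10 markers of oocyte-derived and cleavage-stage RNA averaged at least 1 CPM, with summed levels of 1748 to 2042 CPM in siRNA libraries and 2338 to 4406 CPM in controls. A large part of that sum was Dppa2 (928 and 2536 CPM on average after siRNA and in controls), and the other 9 summed to 832 to 1164 CPM after siRNA and 530.1 to 1139 CPM in controls. Of the 10 markers, Gdf9, Oosp1, Zp3 and Zscan4c were higher and Dppa2 and Pou5f1 lower in all siRNA libraries than in any control. Of all tested genes, 12.1% were higher and 11.6% lower in this way. Oosp1, an oocyte-secreted protein gene, averaged 100.2 CPM after siRNA and 24.4 CPM in controls, and the part of such differences in the results was not tested. Markers of cumulus cells summed to 0.514 to 1.46 CPM in siRNA libraries and 1.02 to 1.69 CPM in controls, with Cd44, Foxl2, Fshr, Inhba and Lhcgr at 0. Sperm markers summed to 0.151 to 0.905 CPM in siRNA libraries and 0.194 to 1.14 CPM in controls, with Odf1, Smcp, Spem1 and Tnp2 at 0. Control libraries varied more than siRNA libraries: among 11958 genes averaging at least 1 CPM, the SD of log2(CPM + 0.1) had a median of 0.292 after siRNA and 0.529 in controls. The 21 members at that level had a median SD of 0.341 after siRNA and 0.636 in controls.

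No member passed the test for a difference after Son siRNA. Of the 40 genes, 29 had enough counts to be tested and 0 of these passed edgeR's quasi-likelihood test at an adjusted p under 0.05, in a fit where 0.989% of all 17788 tested genes were called (0.0899% higher and 0.899% lower). At an unadjusted p under 0.05 there were 5 members, 3 higher and 2 lower. They are 17.2% of those tested, against 14.7% of all tested genes (5.88% higher and 8.86% lower). DESeq2's Wald test called 4, Ascl2 and Ndn higher and Snrpn and Slc38a4 lower, or 13.8% against 6.9% of all tested genes (2.28% higher and 4.63% lower). In TMM-scaled CPM the groups did not overlap for 6 members, 3 higher and 3 lower, which is 20.7% against 23.7% of all tested genes. Ndn, at 0 units in all controls, is among the higher members by unadjusted p, by DESeq2 and without overlap. Of the members that passed the count filter, 24 reached its cutoff in every library of both groups. Kcnq1, Ndn, Nespas and Rian reached it in every siRNA library but not in every control, and Peg10 in a mixture of libraries. Kcnq1, Nespas and Rian also reached it in part of the controls. Only Ndn passed through the siRNA libraries alone, so it could be tested only by being high there.

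Maternally and paternally expressed genes were spread on both sides of 0. Among the 24 members that reached the count filter in both groups, a subset chosen after the values were seen, 12 had a log2 fold change above 0 and 12 below, with a median of 0.01. Of the 8 maternally expressed genes among them 5 were above 0, with a median of 0.38, and of the 16 paternally expressed genes 7 were, with a median of -0.19. All 13435 genes that reached the filter in both groups had a median of -0.02. For Ndn, which passed through the siRNA libraries alone, the filter itself favours a value above 0. With Kcnq1, Ndn, Nespas, Rian and Peg10 included, 7 of 10 maternally expressed genes were above 0 (median 0.60) and 10 of 19 paternally expressed genes (median 0.06). That makes 17 of 29 members (58.6%), against 51.3% of all tested genes. The median was 0.18, against 0.02 for all tested genes. It could not depend on whether Ndn, at 0 in all controls, was taken as fitted or with controls at a floor of 12 units. Ndn lies above that median either way. Without siRNA library 1, 12 of 29 were above 0, without control 1, 15 of 31, and with total-count scaling, which shifts the median of all tested genes by 0.29, 20 of 29 were. Fitted differences of at least 2-fold were found for 7 members, or 24.1%, against 26.5% of all tested genes. Of the 7, 3 (Kcnq1, Ndn and Rian) had reached the filter cutoff in every siRNA library but not in every control. Among members that reached it in both groups there were 4 (16.7%), against 18.2% of all such genes.

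**Figure D1:**
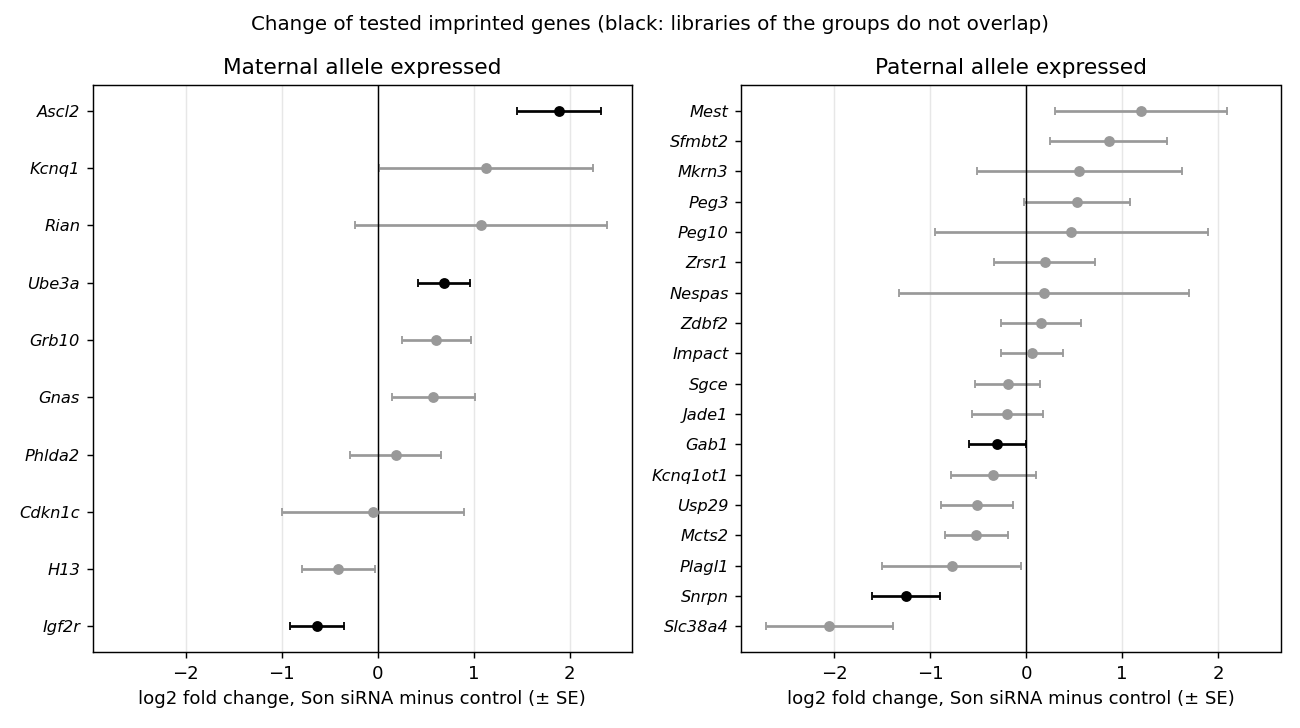
Log2 fold change (Son siRNA minus control, x axis) of 28 of the 29 tested imprinted genes with its standard error, maternally expressed genes on the left and paternally expressed genes on the right. Black points are genes whose libraries do not overlap between groups. Ndn is left out because all controls were at 0, and Ascl2 at 1.89 and Slc38a4 at -2.05 are the extremes of those drawn.

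The summed level of the maternally expressed genes was 345, 301 and 343 CPM in siRNA libraries 1 to 3, against 204, 288 and 322 CPM in controls 1 to 3. Paternally expressed genes summed to 1578, 1409 and 1308 CPM after siRNA, against 1254, 1412 and 2128 CPM in controls. Both sums overlapped between the groups. A single gene, Impact, supplied 35.1% to 61.1% of the members' summed CPM in a library.

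Levels between genes were compared per kilobase of exon, counting every annotated exon of a gene. Expressed transcripts may be shorter, so these levels and their ratios depend on the isoforms annotated. Impact was the most abundant member at 188 CPM per kb over the 6 libraries, higher than 98.3% of the tested genes. Mcts2 followed at 76.4, Snrpn at 46.0, Phlda2 at 42.4 and Usp29 at 15.4 CPM per kb. Igf2r, Ube3a and Sgce were next, at 7.39, 7.33 and 2.33 CPM per kb. Most other tested members lay between 0.106 (Nespas) and 1.96 CPM per kb (Gab1), with Ascl2 at 1.88. At the low end Ndn had 0.0345, Peg10 0.0268 and Rian 0.0120 CPM per kb.

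Impact, which restrains activation of the eIF2 kinase GCN2, lies on chromosome 18 (12955852 to 12992950 on GRCm38). It had 1092, 1046 and 825 CPM after Son siRNA, against 512, 978 and 1345 CPM in controls. The controls spanned a wider range than the siRNA libraries and enclosed all of them. Its log2 fold change of 0.06 (SE 0.323) did not pass the edgeR test (adjusted p = 0.958).

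**Figure D2:**
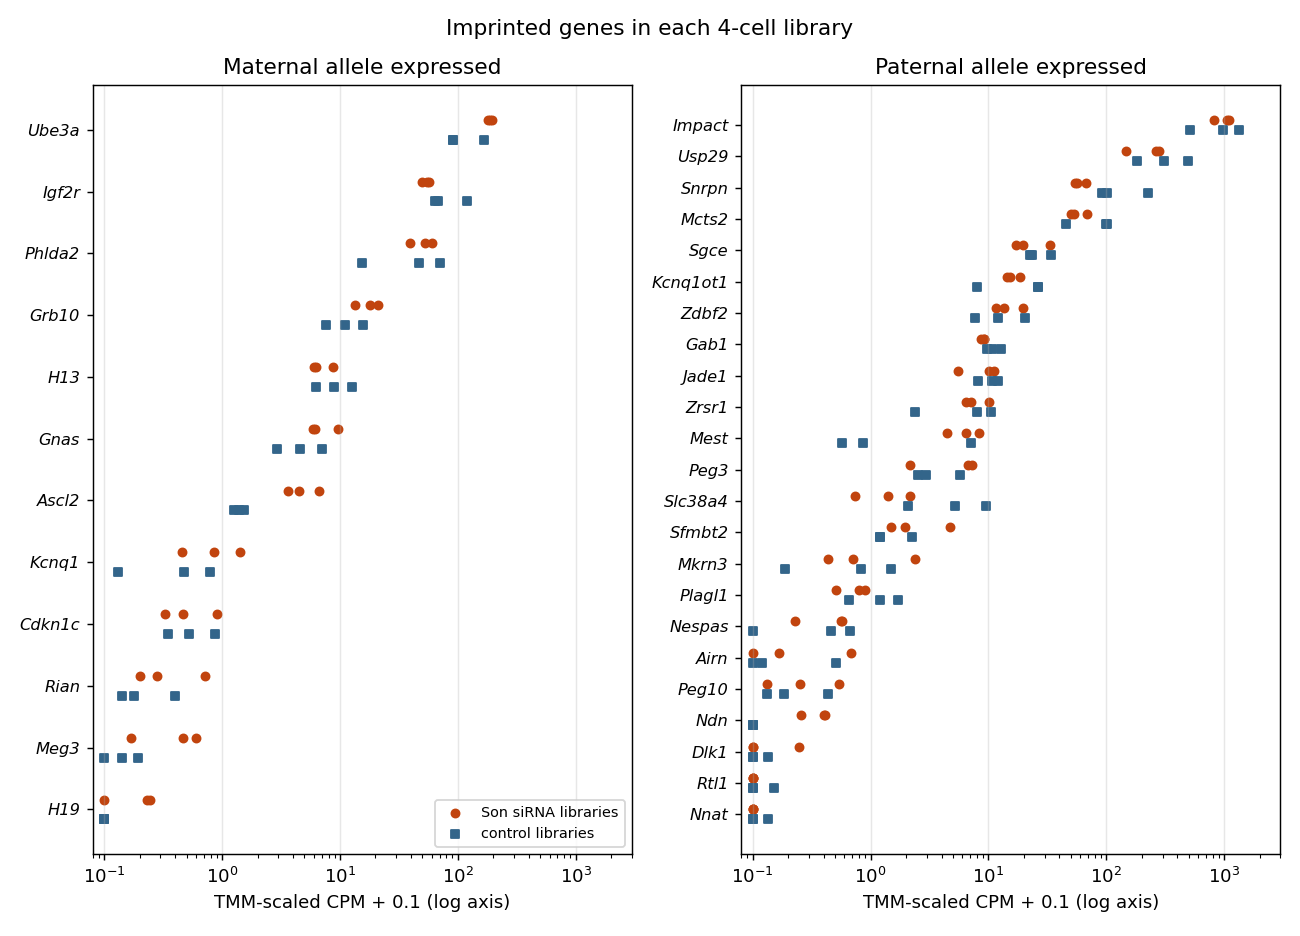
TMM-scaled CPM + 0.1 on a log axis for every imprinted gene with at least 1 count, with 3 Son siRNA libraries (circles, upper row of each gene) and 3 control libraries (squares, lower row). Maternally expressed genes are on the left and paternally expressed genes on the right. Levels run from near 0 to 1345 CPM for Impact in control 3.

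Promoter windows are printed for Ascl2, Mcts2, Mest, Peg3 and Snrpn, which stand for the main clusters with levels above 1 CPM and include windows with and without a motif. They come from RefSeq (GRCm38.p6), run from 250 bases before to 50 bases after an annotated start, and are written 5′ to 3′ on the gene's strand. The letters TGCCGC, the core of the ZFP57 motif, were searched on both strands and are in capitals on either strand. For a gene with several windows, the one with most matches is printed. The windows of 32 members were matched. Of these 32 genes, 10 (31.3%) held the letters in at least 1 window, against 13.1% of all 27025 symbols in the table. By window the shares were 20.8% of 53 member windows and 11.6% of all 32851 windows, with overlapping windows of a gene counted separately. A match describes the sequence alone.

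The Snrpn-Ube3a domain on chromosome 7 held differences in both directions. Snrpn, a paternally expressed gene for the Sm-core protein SmN, had 54.2, 66.7 and 55.9 CPM after Son siRNA, against 226.9, 101 and 91.5 CPM in controls. Every siRNA library was below every control, and control 1 stood far above the other controls. The means were 58.9 ± 6.76 and 139.9 ± 75.5 CPM (SD, n = 3 each). Snrpn's log2 fold change was -1.25 (SE 0.354), not past the threshold by edgeR (adjusted p = 0.138) and past it by DESeq2 (adjusted p = 0.0162). Leaving out control 1 left -0.71 (edgeR adjusted p = 0.23). Snrpn spans 59982495 to 60140219 on the minus strand, and 34.1% of its exonic bases are shared with Gm38393, Snurf and Gm18908. Gm38393 had 7.03, 9.64 and 2.24 CPM after siRNA, against 18.9, 9.97 and 20.3 CPM in controls, while the Snurf row was at or near 0 throughout. The window of a start site inside the gene, chr7:60005150-60005449 on the minus strand, holds the letters once, as the reverse complement GCGGCA, and the other 3 windows of Snrpn hold none.
Snrpn: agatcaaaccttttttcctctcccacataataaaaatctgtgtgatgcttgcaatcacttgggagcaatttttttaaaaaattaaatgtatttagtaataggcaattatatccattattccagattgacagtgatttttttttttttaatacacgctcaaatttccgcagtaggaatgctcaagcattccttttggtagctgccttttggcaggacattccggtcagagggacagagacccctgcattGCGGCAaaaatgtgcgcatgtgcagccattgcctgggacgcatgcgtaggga

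Ube3a, the maternally expressed gene of this domain in neurons, encodes a ubiquitin ligase. It had 195, 179 and 186 CPM after Son siRNA, against 91.1, 90.5 and 165 CPM in controls. All siRNA libraries were higher than all controls, with control 3 close to them. Ube3a averaged 187 ± 7.88 CPM after siRNA and 116 ± 43.0 CPM in controls (SD, n = 3 each). Its log2 fold change was 0.69 (SE 0.272) and edgeR's adjusted p was 0.28. Without control 3 it was 1.04 (edgeR adjusted p = 0.0741), and without control 1 or control 2 it was 0.55 (edgeR adjusted p = 0.432 and 0.306). The exons of Ube3a, between 59228750 and 59311536, share 27.3% of their bases with Gm44560, Snhg14 and 9330162G02Rik on the opposite strand, and the reads carry no strand. Snhg14, the long noncoding host transcript that runs antisense to Ube3a and is no member of the list, had 37.0, 37.6 and 29.2 CPM after siRNA, against 103, 51.1 and 67.5 CPM in controls. Its groups did not overlap, and at -1.09 (log2, SE 0.301) it missed edgeR's threshold (adjusted p = 0.131) and passed DESeq2's (adjusted p = 0.0153). Per kilobase, Ube3a stood at 0.332 of Snrpn after siRNA and at 0.0865 of Snrpn in controls. These are ratios of group means without a spread, and the high Snrpn value of control 1 (226.9 CPM) lowers the control ratio.

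Of the smaller genes of the domain, Ndn, which encodes the growth suppressor necdin, had 19, 35 and 41 units after Son siRNA and 0 units in each control. In CPM these are 0.157, 0.299 and 0.310. With controls at a floor of 12 units over the group and no error set on its siRNA units, Ndn was 6.54-fold higher after siRNA. Neither its level nor its call is firm, since edgeR's adjusted p was 0.121 and DESeq2's 0.0423. Mkrn3, a makorin ring finger gene, had 2.28, 0.615 and 0.332 CPM after siRNA, against 0.728, 0.0880 and 1.38 CPM in controls, so the groups overlapped. Magel2, a MAGE family gene, was at 0 in all 6 libraries. Peg12, a paternally expressed gene of the same domain that was on a second list, had 4.40, 2.43 and 5.05 CPM after siRNA, against 0.250, 1.36 and 0.249 CPM in controls. Its groups did not overlap (log2 fold change 2.67, SE 0.771, edgeR adjusted p = 0.144, DESeq2 adjusted p = 0.00904).

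In the Kcnq1 domain on chromosome 7, the member with the smallest p of all was Ascl2, a basic helix-loop-helix transcription factor of the trophoblast lineage. Ascl2 (142966829 to 142969264, minus strand) had 3.50, 4.36 and 6.55 CPM after Son siRNA, against 1.44, 1.29 and 1.15 CPM in controls. The lowest siRNA library was more than the highest control by a margin wider than the spread of the controls. Means were 4.80 ± 1.57 and 1.29 ± 0.142 CPM (SD, n = 3 each), a ratio of 3.71. The fitted log2 difference was 1.89 (SE 0.44), which missed edgeR's threshold (adjusted p = 0.0888) and passed DESeq2's (adjusted p = 0.00175). Leaving out a library gave 1.60 to 2.08, with edgeR adjusted p of 0.0945 to 0.421. With 3 libraries against 3, an exact two-sided permutation test cannot go below p = 0.1, a value that groups without overlap reach by construction, as for Ascl2, Gab1, Igf2r, Ndn, Snrpn and Ube3a. Slc38a4 gave an exact permutation p of 0.2. No exonic base of Ascl2 is shared with another gene. Its window at chr7:142969215-142969514 on the minus strand holds 23 CG dinucleotides and no TGCCGC.
Ascl2: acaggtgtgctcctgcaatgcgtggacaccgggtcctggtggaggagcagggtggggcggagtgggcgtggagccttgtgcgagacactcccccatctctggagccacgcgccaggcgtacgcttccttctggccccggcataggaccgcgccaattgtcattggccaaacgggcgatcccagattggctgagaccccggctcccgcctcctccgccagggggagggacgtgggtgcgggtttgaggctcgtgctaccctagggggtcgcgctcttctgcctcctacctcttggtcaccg

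Phlda2, a pleckstrin homology domain gene that restrains placental growth, was the most abundant gene of the Kcnq1 domain. It had 52.1, 38.9 and 60.6 CPM after Son siRNA, against 15.4, 46.8 and 71.0 CPM in controls. Control 1 was low and control 3 high, with the siRNA libraries between them (log2 fold change 0.19, SE 0.476, edgeR adjusted p = 0.916). Kcnq1ot1, the paternally expressed noncoding RNA that silences the domain in cis, had 14.1, 15.0 and 18.3 CPM after siRNA, against 26.0, 26.3 and 7.88 CPM in controls. It is annotated as a single exonic block of 93092 bases, so these levels correspond to 0.170 CPM per kb after siRNA and 0.216 CPM per kb in controls. Kcnq1, a potassium channel gene, had 1.31, 0.359 and 0.748 CPM after siRNA, against 0.0312, 0.696 and 0.374 CPM in controls. Cdkn1c, the cyclin-dependent kinase inhibitor p57, had 0.809, 0.231 and 0.363 CPM after siRNA, against 0.427, 0.775 and 0.249 CPM in controls. Both overlapped between groups. Slc22a18, a transporter gene, was at 0 in all libraries.

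The Peg3 domain, also on chromosome 7, holds genes of unequal level. Usp29, a paternally expressed ubiquitin protease gene (6730578 to 6967219), had 279, 147 and 265 CPM after Son siRNA, against 311, 184 and 489 CPM in controls. Peg3, a zinc finger gene that starts 147 bases away on the other strand, had 6.55, 2.08 and 7.08 CPM after siRNA, against 2.40, 5.63 and 2.82 CPM in controls. Both genes overlapped between groups, with log2 fold changes of -0.51 (SE 0.374, edgeR adjusted p = 0.594) for Usp29 and 0.53 (SE 0.555, edgeR adjusted p = 0.736) for Peg3. Per kilobase and over all libraries, Usp29 stood at 46.4 times the level of Peg3. Of the exonic bases of Usp29, 14.8% are shared with Zim3 and Gm27675. The promoter windows of Peg3 and Usp29 share 263 bases, and neither holds TGCCGC. The Peg3 window, chr7:6730370-6730669 on the minus strand, reads as follows. Zim1, the maternally expressed zinc finger gene of the domain, was at 0 in all libraries.
Peg3: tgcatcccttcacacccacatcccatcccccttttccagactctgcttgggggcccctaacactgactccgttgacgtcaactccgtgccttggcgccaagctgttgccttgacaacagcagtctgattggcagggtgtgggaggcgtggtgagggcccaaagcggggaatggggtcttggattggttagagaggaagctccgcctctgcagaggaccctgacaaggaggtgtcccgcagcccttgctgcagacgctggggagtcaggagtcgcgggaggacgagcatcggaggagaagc

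Igf2r, which encodes the receptor that clears IGF2 and carries mannose 6-phosphate proteins to lysosomes, lies on chromosome 17 (12682406 to 12769664). It had 57.2, 49.97 and 54.8 CPM after Son siRNA, against 68.4, 118 and 63.7 CPM in controls. On this TMM scaling the siRNA libraries were close together and all below the controls, among which control 2 was high. Averages were 54.0 ± 3.68 CPM after siRNA and 83.5 ± 30.3 CPM in controls (SD, n = 3 each). For Igf2r the log2 fold change was -0.63 (SE 0.284, edgeR adjusted p = 0.346), and without control 2 it was -0.29 (edgeR adjusted p = 0.496). With total-count scaling of all libraries it was -0.38 (edgeR adjusted p = 0.659). Airn, the paternally expressed RNA that silences Igf2r in cis in later tissues, had 0.586, 0 and 0.0680 CPM after siRNA, against 0.406, 0 and 0.0208 CPM in controls, and was too low to test.

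Among the pairs of host and retrogene, Mcts2 lies within an intron of H13 on chromosome 2 (152687035 to 152687946). Mcts2, a paternally expressed retrogene of the translation factor gene Mcts1, had 53.3, 49.98 and 68.6 CPM after Son siRNA, against 101, 45.8 and 99.8 CPM in controls. H13, which encodes signal peptide peptidase and whose full-length transcript is maternally expressed, had 5.87, 8.67 and 6.13 CPM after siRNA, against 12.5, 8.79 and 6.15 CPM in controls. Both overlapped between groups, with log2 fold changes of -0.52 (SE 0.327) and -0.41 (SE 0.377) and edgeR adjusted p of 0.526 and 0.692. The X-linked parent Mcts1 had 46.5, 49.97 and 38.8 CPM after siRNA, against 81.3, 26.8 and 73.3 CPM in controls, and shares no 100-base stretch with Mcts2. The Mcts2 window, chr2:152686898-152687197 on the plus strand, holds TGCCGC once.
Mcts2: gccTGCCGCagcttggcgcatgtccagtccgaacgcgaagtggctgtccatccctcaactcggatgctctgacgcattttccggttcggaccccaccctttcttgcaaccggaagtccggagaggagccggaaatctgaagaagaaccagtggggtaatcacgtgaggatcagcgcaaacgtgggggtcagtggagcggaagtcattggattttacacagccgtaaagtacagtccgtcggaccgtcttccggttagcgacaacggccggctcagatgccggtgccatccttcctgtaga

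Zrsr1, a retrogene related to the splicing factor U2AF, had 10.04, 6.36 and 7.03 CPM after siRNA, against 2.28, 7.87 and 10.3 CPM in controls. It lies on chromosome 11 (22972005 to 22976496), and 9.2% of its exonic bases overlap Commd1 on the opposite strand. The groups overlapped, and the log2 difference was 0.19 (SE 0.525, edgeR adjusted p = 0.921).

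Mest, a paternally expressed gene for a hydrolase-like protein on chromosome 6 (30723547 to 30748465), had uneven controls. It had 6.29, 4.36 and 8.27 CPM after Son siRNA, against 0.468, 7.02 and 0.758 CPM in controls. Control 2 lay within the range of the siRNA libraries, and the other controls were far lower. The log2 fold change of 1.2 (SE 0.9) did not pass edgeR's test (adjusted p = 0.604). Without control 2 it was 3.36 and past the threshold (edgeR adjusted p = 0.0356), and Mest was then the 1 member called. Of its exonic bases 23.1% overlap Copg2 on the opposite strand, which had 1.53, 1.98 and 0.408 CPM after siRNA, against 0.635, 1.60 and 1.94 CPM in controls. The Mest window at chr6:30737800-30738099 on the plus strand holds the reverse complement of TGCCGC, written GCGGCA, at 2 places. The nearly identical window chr6:30737803-30738102 also holds 2, and the window chr6:30733256-30733555 holds none.
Mest: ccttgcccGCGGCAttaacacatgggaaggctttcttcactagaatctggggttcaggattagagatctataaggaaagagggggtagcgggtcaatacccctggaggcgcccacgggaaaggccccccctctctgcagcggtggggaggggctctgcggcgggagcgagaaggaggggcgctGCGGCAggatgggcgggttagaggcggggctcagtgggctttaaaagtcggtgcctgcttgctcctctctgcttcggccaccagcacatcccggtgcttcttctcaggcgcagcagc

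Sgce and Peg10 share a control region on chromosome 6. Sgce, which encodes epsilon-sarcoglycan, had 16.9, 33.0 and 19.5 CPM after Son siRNA, against 22.5, 23.1 and 33.5 CPM in controls (log2 fold change -0.19, SE 0.338, edgeR adjusted p = 0.869). Peg10, derived from a retrotransposon and needed in the placenta, had 0.0330, 0.154 and 0.438 CPM after siRNA, against 0.0312, 0.335 and 0.0832 CPM in controls. For both genes the groups overlapped.

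All 4 genes with a non-canonical imprint were tested, and 1 of them, Gab1, had groups that did not overlap (25%, against 23.7% of all tested genes). Slc38a4, an amino acid transporter gene on chromosome 15 (96994820 to 97055956), had 0.644, 1.3 and 2.05 CPM after Son siRNA, against 9.45, 1.99 and 5.12 CPM in controls. The highest siRNA library was just above the lowest control. Slc38a4 averaged 1.33 ± 0.702 and 5.52 ± 3.75 CPM (SD, n = 3 each). Its log2 fold change of -2.05 (SE 0.661) did not pass by edgeR (adjusted p = 0.189) and passed by DESeq2 (adjusted p = 0.0293). Without control 1 it was -1.41 (edgeR adjusted p = 0.386), and without control 2 -2.45 (edgeR adjusted p = 0.0761). Gab1, a docking protein of receptor tyrosine kinases on chromosome 8 (80764438 to 80880519), had 9.13, 8.58 and 9.0 CPM after siRNA, against 12.6, 10.7 and 9.65 CPM in controls. The ranges did not overlap, but the fitted log2 difference was -0.30 (SE 0.296), with an edgeR adjusted p of 0.714. With total-count scaling it was -0.01. Jade1, a scaffold of a histone acetyltransferase complex, had 10.1, 11.1 and 5.4 CPM after siRNA, against 11.8, 10.6 and 8.02 CPM in controls. Sfmbt2, a Polycomb group gene, had 1.86, 4.60 and 1.40 CPM after siRNA, against 2.13, 1.10 and 1.09 CPM in controls. Jade1 and Sfmbt2 overlapped between groups, with log2 fold changes of -0.20 (SE 0.372) and 0.86 (SE 0.61). For Sfmbt2 it was 0.17 without siRNA library 2.

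**Figure D3:**
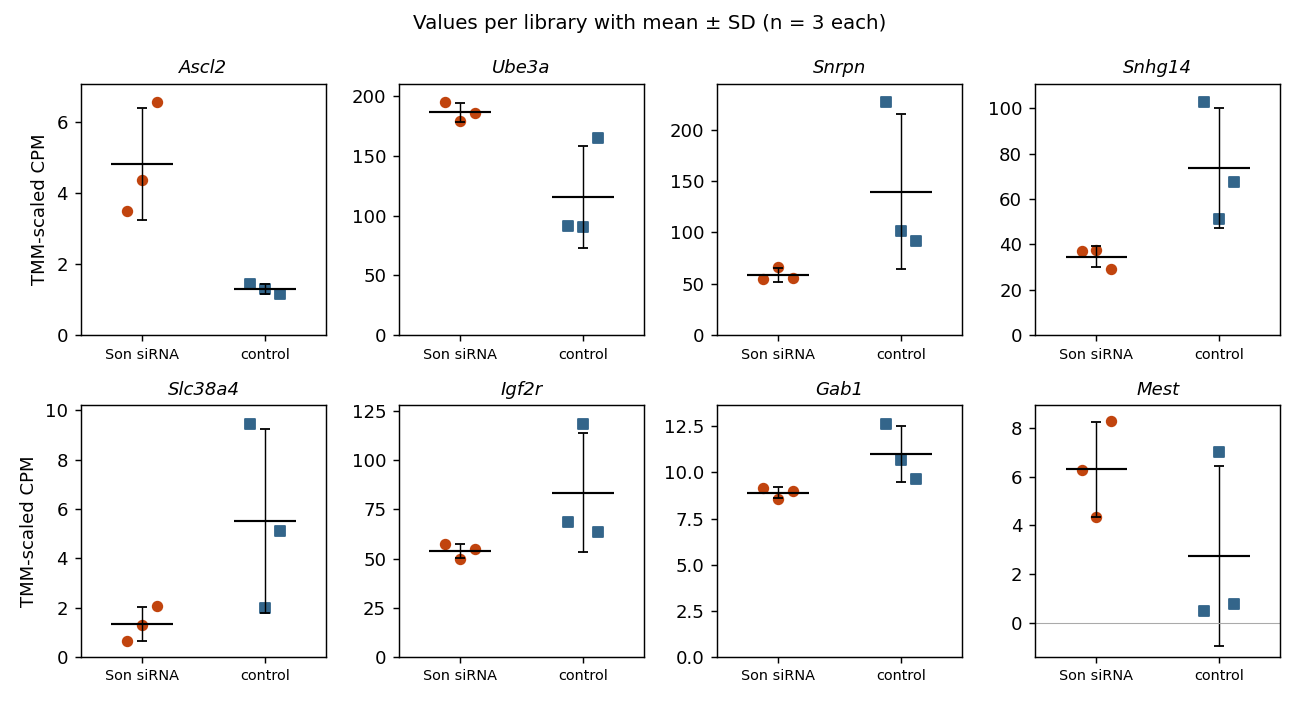
TMM-scaled CPM per library for 7 imprinted genes and the antisense host Snhg14, with Son siRNA (circles, left) and control (squares, right) in each panel and the mean ± SD of 3 libraries in black. Ascl2 and Ube3a lie higher and Snrpn, Snhg14, Igf2r and Gab1 lower in all siRNA libraries, while Slc38a4 and Mest overlap through a single control.

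Signalling genes with maternal expression were measured at moderate levels. Grb10, an adaptor that restrains insulin and IGF signalling, had 18.1, 13.3 and 20.8 CPM after Son siRNA, against 7.45, 15.6 and 11 CPM in controls (log2 fold change 0.61, SE 0.36, edgeR adjusted p = 0.49). Gnas, which encodes the stimulatory G protein alpha subunit and is imprinted by transcript and tissue, had 9.44, 5.84 and 6.01 CPM after siRNA, against 6.93, 4.48 and 2.83 CPM in controls (log2 fold change 0.58, SE 0.43, edgeR adjusted p = 0.598). In both genes 1 control lay inside the siRNA range. Nespas, the paternally expressed antisense RNA of the Gnas locus, had 0.128 to 0.470 CPM after siRNA and 0 to 0.572 CPM in controls, and 38.5% of its exonic bases overlap Gnas, Gm27849 and Gm27869. The paternally expressed zinc finger genes Zdbf2 and Plagl1 overlapped as well. Zdbf2 had 11.5 to 19.6 CPM after siRNA and 7.57 to 20.5 CPM in controls. Plagl1 had 0.410 to 0.801 CPM after siRNA and 0.552 to 1.62 CPM in controls.

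The growth genes best known for imprinting in the fetus were scarcely detected. Igf2 was at 0 in all 6 libraries, as were Magel2, Mirg, Slc22a18 and Zim1, and a count of 0 allows up to 0.0906 to 0.125 CPM in a library, taking 12 units as the floor. Of the exonic bases of Igf2, 64.5% are shared with Gm49394 on the same strand and Igf2os, and how reads there were assigned is not known. Igf2os had 25 units in siRNA library 3 and 18 units in control 1. H19, the noncoding RNA that shares its control region with Igf2, had 16, 17 and 0 units after Son siRNA and 0 units in controls. With controls at the same floor, the ratio of the groups for H19 was 2.27. The 33 siRNA units carry counting error too and siRNA library 3 was at 0, so this is no lower bound. The groups overlapped, and H19 was not tested because it failed the count filter. In the Dlk1-Meg3 domain, the noncoding RNA Meg3 had 60, 8 and 48 units after siRNA, against 9, 0 and 4 units in controls. The groups overlapped in CPM, and Meg3 failed the count filter and was not tested. Rian, the noncoding RNA downstream of it, had 74, 12 and 24 units after siRNA, against 4, 9 and 29 units in controls, and overlapped between groups (edgeR adjusted p = 0.785). Dlk1, a Notch-like growth regulator, had 18 units in siRNA library 1 and 4 units in control 2. Rtl1, a retrotransposon-derived placental gene, and Nnat, a proteolipid gene within Blcap, had 6 and 4 units, each in control 2 alone. Such floors cover only counting error, because amplified reads without molecular identifiers are not independent molecules. In embryos sequenced whole, fewer cells with a transcript and less of it per cell cannot be told apart.

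Genes that set or keep imprints were examined as a second list. Of 28 such genes, all tested, 0 passed edgeR's test in either direction. At an unadjusted p under 0.05 there were 4, all lower (14.3%, against 14.7% of all tested genes, 8.86% lower). They were Eed, Smchd1, Dnmt3b (log2 fold change -1.12) and Zfp42 (-0.92), and the last 2 overlapped between groups. DESeq2 called 1, lower (3.57%, against 6.9% of all tested genes, 4.63% lower). The list median was -0.33, against 0.02 for all tested genes, a median that total-count scaling shifts by 0.29. Groups did not overlap for 9 genes (32.1%, against 23.7% of all tested genes), 2 higher and 7 lower. Of all tested genes 12.1% were higher and 11.6% lower without overlap. The 7 lower genes were Dnmt1, Eed, Ehmt2, Rbbp4, Setdb1, Smchd1 and Zfp445. The 2 higher genes were Mbd3, a subunit of the NuRD complex, and the oocyte gene Nlrp2. Mbd3 had 17.4, 17.0 and 22.8 CPM after Son siRNA, against 13.3, 15.5 and 9.59 CPM in controls (log2 fold change 0.57, SE 0.309, edgeR adjusted p = 0.444). Nlrp2 had 3.56, 2.58 and 3.15 CPM after siRNA, against 2.05, 1.95 and 1.87 CPM in controls (edgeR adjusted p = 0.523). Eed, the Polycomb repressive complex 2 subunit that reads H3K27 trimethylation, had 214, 215 and 231 CPM after Son siRNA, against 387, 310 and 480 CPM in controls. At a log2 fold change of -0.84 (SE 0.217) it missed edgeR's threshold (adjusted p = 0.113) and passed DESeq2's (adjusted p = 0.0225). Smchd1, a chromatin protein that keeps some imprinted genes silent, had 135, 158 and 109 CPM after siRNA, against 229.8, 182 and 250.4 CPM in controls (log2 fold change -0.72, SE 0.229, edgeR adjusted p = 0.181). The catalytic subunit gene Ezh2 had 94.4, 90.5 and 90.8 CPM after siRNA, against 83.8, 98.1 and 117 CPM in controls. Zfp57 had 37.0, 23.7 and 35.9 CPM after siRNA, against 33.3, 48.3 and 40.8 CPM in controls. Trim28, its corepressor, had 125, 83.7 and 103 CPM after siRNA, against 76.8, 152 and 93.6 CPM in controls. Dnmt1, the maintenance DNA methyltransferase gene, had 16.3, 11.1 and 13.1 CPM after siRNA, against 16.8, 28.1 and 18.2 CPM in controls (log2 fold change -0.64, SE 0.322, edgeR adjusted p = 0.397). Dppa3, which shields maternal methylation marks from oxidation, overlapped between groups at 602 to 942 CPM after siRNA and 408 to 1026 CPM in controls.

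Another list held further imprinted genes, of which 47 of 50 symbols matched a row and 31 were tested. By edgeR 0 passed and 4 had an unadjusted p under 0.05 (12.9%, against 14.7% of all tested genes), and DESeq2 called 1 higher and 1 lower (6.45%, against 6.9%). Its median was 0.28, with 16 genes above 0 and 15 below. Besides Peg12, the genes under that p were Phactr2, Ppp1r9a and Gpr1. Phactr2, a phosphatase and actin regulator, had 0.776, 0.333 and 0.408 CPM after Son siRNA, against 0.989, 5.54 and 2.79 CPM in controls (log2 fold change -2.62, SE 0.735, edgeR adjusted p = 0.134). Ppp1r9a, an actin-binding scaffold of protein phosphatase near Peg10, had 6.31, 9.40 and 10.3 CPM after siRNA, against 24.0, 15.8 and 13.8 CPM in controls (log2 fold change -1.04, SE 0.35, edgeR adjusted p = 0.206). Gpr1, a receptor gene next to Zdbf2, had 0.826, 0.991 and 1.57 CPM after siRNA, against 0.239, 0.0704 and 0.405 CPM in controls (log2 fold change 2.24, SE 0.897, edgeR adjusted p = 0.289). None of these 3 overlapped between groups. On the whole list the groups did not overlap for 7 genes, 4 higher and 3 lower. That is 22.6%, against 23.7% of all tested genes.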

How the data were processed

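RNA of 4-cell mouse embryos was measured in 3 Son siRNA and 3 control libraries, grouped and numbered by sample title. The authors deposited whole-number estimated counts per gene, not normalized. StringTie 1.3.3b, HISAT2 2.0.5 and GRCm38 are named per the submitters' processing notes. Counting step, annotation release and filters were each not given in the sources used here. In each library more genes stood at 4 units (434 to 544) than at 3 (264 to 327) or 5 (202 to 268), so 4 units were taken as 1 read pair. This is an assumption, since many values are not multiples of 4. The floor is 12 units, which gives lower ratios than 3 units would. Members and lists were chosen with earlier results of these data known. Values per library were to be given for members past the threshold, members whose groups do not overlap, the 8 of highest level per kb and their cluster partners. Other members, genes overlapping members and genes of the other lists given this way were chosen after their values were seen.

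Counts were filtered with filterByExpr, scaled by TMM and tested with glmQLFit and glmQLFTest of edgeR 4.0.16 (R 4.3.3), Son siRNA minus control, without a block, with Benjamini-Hochberg adjustment over all 17788 tested genes at 0.05. DESeq2 1.42.0 was an alternative. Of 46072 rows, 45137 matched GENCODE vM21 (GRCm38), which gave coordinates, exonic length and overlap. In simulated counts of 16700 genes for this comparison the test found 82 of the 100 simulated 4-fold changes and 99 of the 100 simulated 8-fold ones, with 17 false calls among 198. These numbers are not split by level, so they do not give the power for members with low counts. Other alternatives were other scalings and filters, counts divided by 4, a replicate block and leaving out each library.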

Additional observations from a re-analysis of the deposited data

How the results depend on the processing

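The count of imprinted genes past the threshold was 0 with edgeR under each other scaling, filter and count unit tried and with the replicate block. It was 4 with DESeq2's Wald test and 0 to 1 when leaving out each library in turn, the 1 being Mest without control 2. All genes called numbered 176 (16 higher and 160 lower), and 42 with total-count scaling, 100 with no filter, 288 with a filter of 50 units in 3 libraries, 330 with counts divided by 4, 1228 with DESeq2 (405 higher and 823 lower), and 0 to 315 when leaving out each library. The 0 came without siRNA library 1, 2 or 3, where 1786, 2348 and 1733 genes had an unadjusted p under 0.05, and without control 1, 2 or 3 there were 64, 315 and 87. With the replicate number as a block 0 genes were called by edgeR (1997 at an unadjusted p under 0.05). Same-numbered libraries deviated from their group means with correlations of -0.06, -0.07 and 0.05, and other pairs with -0.05 to 0.11. With 3 libraries in each group, these values cannot show whether same-numbered libraries shared a litter or day.

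Of 399 refitted values for single members, 372 kept their direction and side of the threshold, 5 passed it and 22 changed sign, all of the last in members whose edgeR adjusted p was 0.869 or more. With total-count scaling Cdkn1c was at 0.20, Jade1 at 0.073 and Sgce at 0.10, and with upper-quartile scaling Cdkn1c was at 0.0090. Leaving out each library gave log2 ranges of -0.70 to 0.47 for Cdkn1c, -0.23 to 0.41 for Impact, -0.40 to 0.064 for Jade1, -0.62 to 1.40 for Mkrn3, -0.40 to 0.96 for Nespas, -0.67 to 1.85 for Peg10, -0.22 to 0.70 for Phlda2, -0.54 to 0.023 for Sgce, -0.12 to 0.61 for Zdbf2 and -0.22 to 0.62 for Zrsr1. The cause was not tested. Of the 29 tested members, 21 averaged at least 1 CPM.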

Other observations

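Xist, the noncoding RNA of imprinted X inactivation that is transcribed from the paternal X chromosome in early mouse embryos, had 64.1, 18.2 and 35.3 CPM after Son siRNA, against 203, 80.0 and 24.3 CPM in controls. Its antisense partner Tsix had 4.84, 24.9 and 25.2 CPM after siRNA, against 56.8, 3.25 and 27.2 CPM in controls. Both overlapped between groups and neither passed edgeR's test (adjusted p = 0.4 for Xist and 0.805 for Tsix). The reads carry no strand, so counts of this pair cannot be told apart where they overlap.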
